A study of Mus musculus with 100 samples.

Results

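Undifferentiated mouse embryonic stem cells of a flox line and of 2 KI clones were compared by RNA sequencing, using 3 of the 37 RNA libraries among the 100 samples of the series. The flox library came from Mll3-/-;Mll4flox/flox cells and the KI libraries from Mll3-/-;Mll4KI/KI cells, clones 27 and 48, all sampled at D0, before any differentiation. All 3 libraries therefore lack Mll3 by genotype, and the groups differ in the Mll4 allele; the labels do not spell out what KI changes, and the series title speaks of methyltransferase activities. Cells were grown on gelatin in 2i+LIF, a medium that combines the MEK inhibitor PD0325901, the GSK3 inhibitor CHIR99021 and leukemia inhibitory factor, and poly(A) RNA was sequenced. The flox group has 1 library and each KI library is 1 clone, so an effect of the KI allele, an effect of deriving a clone and the error of the flox library cannot be told apart here. No test was made at D0. Both clones were set against the same flox library, and a gene is called higher or lower at D0 only where the 2 clones agree, each differing by 2-fold or more.

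MLL3 and MLL4, encoded by Kmt2c and Kmt2d, are large proteins of related complexes that place methyl groups on lysine 4 of histone H3, mainly at enhancers. They act with the demethylase UTX (Kdm6a) and with subunits shared by other H3K4 methyltransferases, such as WDR5 and ASH2L. In 2i+LIF, stem cells keep a naive state close to that of the early epiblast, in which DNA methylation is low and many genes of the germ line and of the X-linked reproductive gene families can be read.

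Stem cell markers were abundant in all 3 libraries. Pou5f1, the core pluripotency factor OCT4, was at 1480 CPM (reads scaled to 1 fixed library total) in flox, 1390 in clone 27 and 1430 in clone 48, so both clones were within 1.5-fold of flox. Nanog was at 423, 363 and 409 CPM in the same order. The summed levels of other cell types' marker lists differed widely between lists. The extraembryonic endoderm list, which holds laminin and collagen genes, summed to 935 CPM in flox, 867 in clone 27 and 961 in clone 48 over its 12 measured of 22 members. The trophoblast list summed to 156, 188 and 189 CPM, and the neural list to 139, 88.9 and 99.1 CPM. The mesoderm list was lower, at 52.3, 51.2 and 34.5 CPM, and the fibroblast list lowest, at 15.8, 22.9 and 28.4 CPM. The trophoblast gene Elf5, the liver and yolk sac gene Ttr and the neurogenic gene Neurog2 had at most 0.0424 CPM in any library. Kmt2d was at 185 CPM in flox, 233 in clone 27 and 243 in clone 48, and Kmt2c at 27.6, 35.9 and 33.8 CPM, which does not test the labels because a transcript can be made from a mutated allele. None of the 10 measured genes of the MLL3/MLL4 complex and none of the 13 other H3K4 enzymes was higher or lower. Of all measured genes 5.18% were higher and 2.50% lower, so in lists of this size 0 is near the share of all genes. Gene-level totals were 18908148 reads in flox, 23568131 in clone 27 and 23791495 in clone 48, and a gene with 0 reads could be at up to 0.159, 0.127 and 0.126 CPM.

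Before the comparison with flox, the clones were compared with each other. Of 12934 genes measured, that is with at least 1 CPM in at least 1 of the 3 libraries, 44 (0.340%) differed at least 2-fold between the clones, 39 being higher in clone 27 and 5 (Peg13, Kcnn2, D630039A03Rik, Nkx6-3 and Nrros) higher in clone 48. The genes named here were chosen after their values were seen. Meg3, a noncoding RNA made from the maternal copy of the imprinted Dlk1-Dio3 domain, was at 79.0 CPM in flox and 160 in clone 27, but at 0.799 in clone 48. Rian, from the same domain, was at 126, 217 and 0.252 CPM, and Mirg at 11.0, 17.4 and 0.0420 CPM. Clone 48 was therefore nearly devoid of these RNAs, while clone 27 was somewhat above flox. The Y-linked gene Ddx3y was at 78.1 CPM in flox, 77.6 in clone 27 and 6.51 in clone 48, and Eif2s3y, also Y-linked, was at 75.5, 84.6 and 18.3 CPM. Kdm5d, the Y-linked H3K4 demethylase, was at 5.08 CPM in flox, 33.2 in clone 27 and 0.630 in clone 48, so the clones lay on opposite sides of flox. Peg13, an imprinted noncoding RNA, showed the reverse pattern of Meg3, with 2.38 CPM in flox, 0.0424 in clone 27 and 3.53 in clone 48.

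In libraries of the same clones after differentiation, a part of the 44 genes again differed at least 2-fold in the same direction: 15 and 13 in embryoid bodies at days 4 and 10, 13 and 12 in neural cultures at days 8 and 16, 14 in trophectoderm and 24 in extraembryonic endoderm. Meg3 and Ddx3y did so throughout. Across embryoid body (EB), neural, trophectoderm (TE) and extraembryonic endoderm (ExEn) cultures and D0, Meg3 ranged from 0.0 to 3.86 CPM in clone 48, from 51.4 to 2750 in clone 27 and from 79.0 to 1020 in flox. Ddx3y ranged from 4.52 to 14.7 CPM in clone 48, from 38.8 to 117 in clone 27 and from 33.6 to 110 in flox. Clone 48 lay below every flox library for both genes at each stage. None of Meg3, Rian, Mirg, Peg13 and the Y-linked genes named here enters the counts of higher or lower genes, since the clones do not agree, while D630039A03Rik and Nkx6-3 are among the lower genes. The part of these genes in any other result was not tested. With clone 48 left out, 861 genes were at least 2-fold higher and 429 at least 2-fold lower; with clone 27 left out, the counts were 774 and 402.

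**Figure D1:**
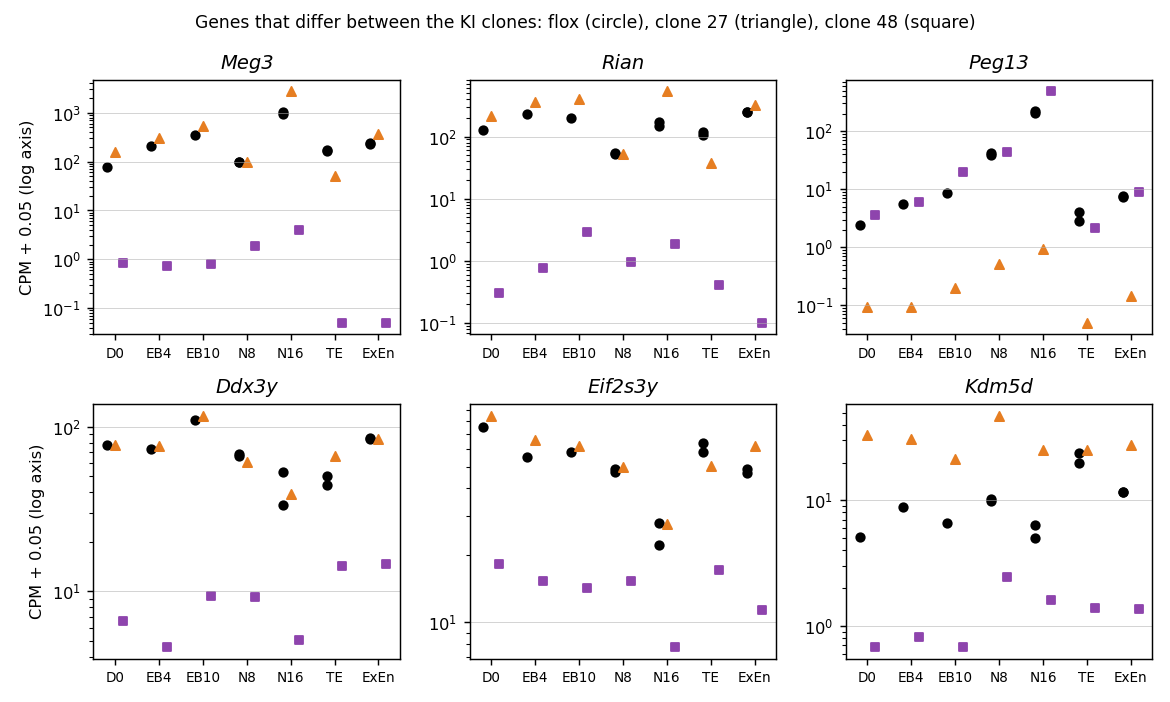
Level in CPM + 0.05 on a log axis of 6 genes that differ between the KI clones, in flox (circles, 1 library at D0 and in EBs, 2 in the other cultures), clone 27 (triangles) and clone 48 (squares), at D0, EB days 4 and 10, neural days 8 and 16 (N8, N16), TE day 6 and ExEn day 5. Clone 48 is the lowest for Meg3, Rian, Ddx3y, Eif2s3y and Kdm5d at each stage, and clone 27 is the lowest for Peg13.

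In the comparison with flox, 670 of the 12934 measured genes (5.18%) were higher in both clones and 323 (2.50%) were lower. The median level of the higher genes was 1.40 CPM in flox against 25.9 CPM for all measured genes, and 284 of the 670 (42.4%) were under 1 CPM in flox. The rule divides by the flox level and such genes are measured only through the clones, so the low flox level is in large part set by the choice of genes. Lower genes had a median of 10.9 CPM in flox and 2.91 CPM as the mean of the clones. At least 4-fold, 130 genes were higher and 59 lower. Of all measured genes 2, Meg3 and Kdm5d, passed 2-fold in opposite directions in the clones, and the median log2 ratio over measured genes was 0.08 in clone 27 and 0.07 in clone 48. Near the limit, 104 higher genes lay within 0.1 log2 units above it and 138 other genes within 0.1 below it; for lower genes the numbers were 60 and 72. Log2 ratios here are of CPM with 0.5 CPM added, which understates differences of low genes.

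**Figure D2:**
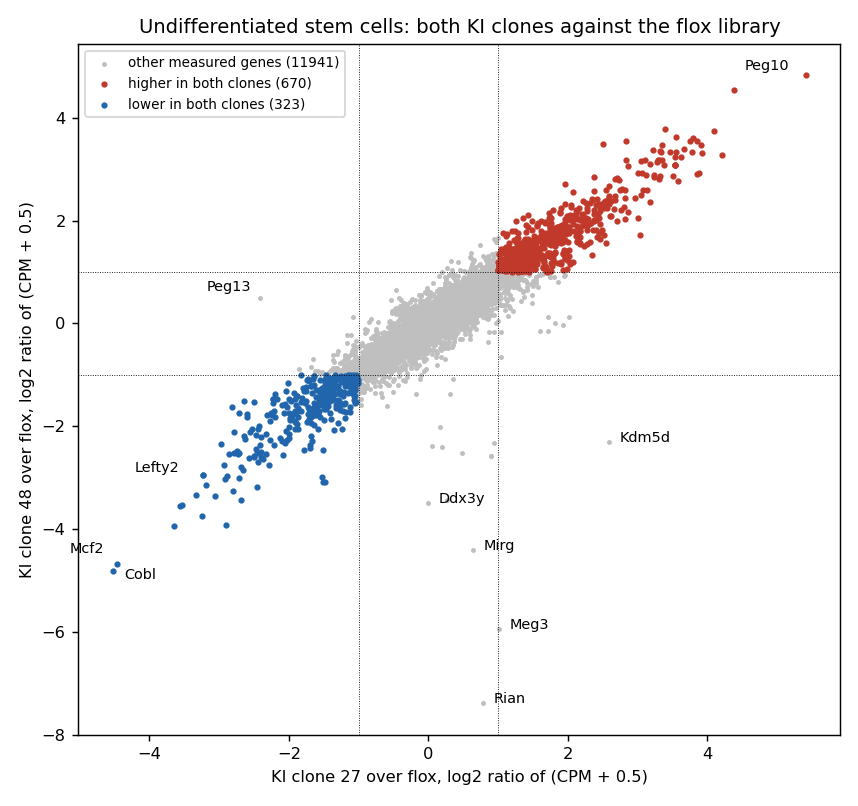
Log2 ratio of (CPM + 0.5) of each measured gene to the flox library, in clone 27 (horizontal axis) and clone 48 (vertical axis), with dotted lines at 2-fold. Red points are the 670 higher genes and blue points the 323 lower genes; both axes share the flox library, so its error moves points along the diagonal, and Meg3, Rian, Mirg, Ddx3y, Kdm5d and Peg13 lie off it.

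Ranked by the smaller of both clones' log2 ratios with 0.5 CPM added, Peg10, a paternally expressed gene of retrotransposon origin needed in the placenta, came first among the higher genes. It was at 11.8 CPM in flox, 525 in clone 27 and 347 in clone 48, a ratio of 44.5 (95% counting interval 39.0 to 51.0) and 29.5 (25.8 to 33.8). Both clones were far above flox. Without an added constant, the smaller ratio was 31.9 for Luzp4 and for Prss42, from 5 reads in flox, and 29.7 for Tph2, all above that of Peg10. Sohlh2, a transcription factor of germ cell differentiation, was at 10.0, 133 and 110 CPM. Pdpn, the membrane glycoprotein podoplanin, was at 1.00, 25.2 and 19.5 CPM. Plekhg1, a guanine nucleotide exchange factor, was at 5.71, 83.2 and 72.3 CPM. Arrb1, beta-arrestin 1, was at 2.33, 42.2 and 31.0 CPM. Tph2, the serotonin-forming enzyme of neurons, went from 6 reads in flox to 257 and 224 reads. The serine protease gene Prss42, Luzp4, Mageb4 and the genes Gm15107 and Gm15091 were also among the 12 largest increases, with flox levels from 0.264 to 0.688 CPM and clone levels from 7.23 to 12.6 CPM.

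By the same ranking Cobl, which nucleates actin filaments, came first among the lower genes, and St8sia1 and Mcf2 passed it with 0.1 CPM added. Cobl was at 186 CPM in flox, 7.64 in clone 27 and 6.09 in clone 48, with a clone mean of 6.87 ± 1.09 CPM (SD, n = 2). Mcf2, the DBL exchange factor, was at 82.1, 3.22 and 2.73 CPM, and Fhl1, a LIM-domain protein, at 52.1, 3.69 and 2.94 CPM. For these genes the clones lay close to each other and far below flox. St8sia1, the ganglioside GD3 synthase, had 111 reads in flox and 1 read in each clone, a ratio of 0.00723 (counting interval 0.000181 to 0.0411) in clone 27 and 0.00716 (0.00018 to 0.0407) in clone 48. Lefty2, an inhibitor of Nodal, was at 746, 79.2 and 95.6 CPM. Pdzd4, Uggt2, Fam25c, Plce1, Islr2, Pkd1l2 and Vwf, the von Willebrand factor gene, completed the 12 largest decreases, with log2 ratios from -3.74 to -2.92 over both clones.

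**Figure D3:**
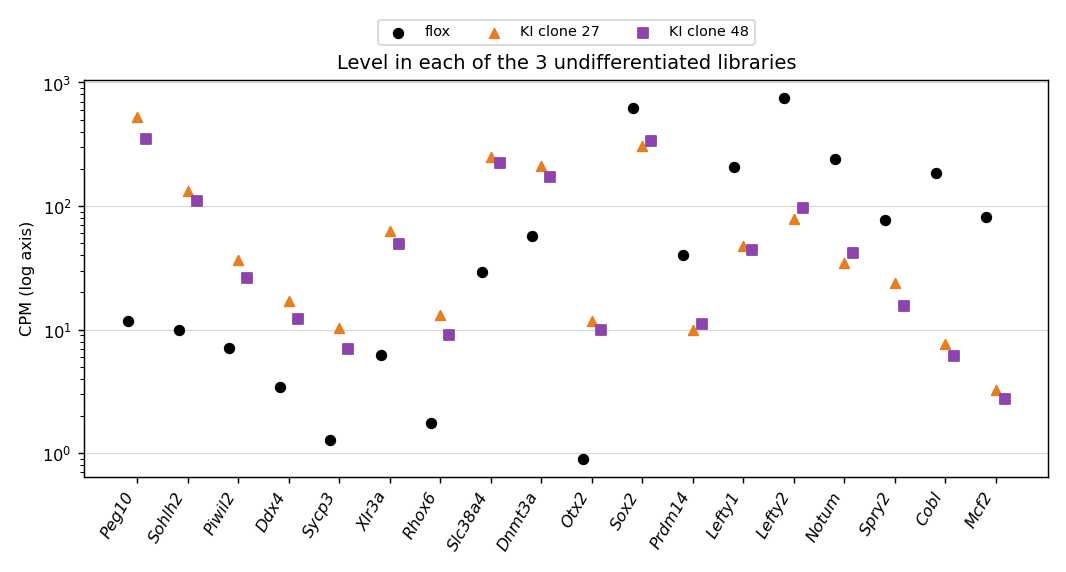
CPM on a log axis of 18 genes described in the text, in the flox library (circles), KI clone 27 (triangles) and KI clone 48 (squares) at D0. In each gene both clones lie on the same side of flox; Peg10 goes from 11.8 to 525 and 347 CPM and Cobl from 186 to 7.64 and 6.09 CPM.

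Although the Xlr and Rhox lists had larger shares of higher genes, the germline list held the most by number of the gene lists described here. Of its 28 genes in the tables, 14 were higher in both clones and 0 lower; 8 were measured without being higher and 6 were under 1 CPM in every library. Of the 14, 5 were under 1 CPM in flox and so were measured only through the clones. Over all measured genes, 5.18% were higher. Among genes of the synaptonemal complex, which joins paired chromosomes in meiosis, Sycp3 was at 1.27 CPM in flox, 10.4 in clone 27 and 6.98 in clone 48. Sycp1 was at 2.27, 10.4 and 10.4 CPM, and Syce1 at 3.49, 20.7 and 19.3 CPM. Of the piRNA pathway, which silences transposons in germ cells, Piwil2 was at 7.09, 36.4 and 26.1 CPM, Mov10l1 at 0.476, 3.99 and 3.11 CPM and Mael at 0.688, 2.97 and 2.19 CPM. Ddx4, the germ cell RNA helicase VASA, was at 3.44, 17.2 and 12.1 CPM. Clone 27 was above clone 48 for most of these, and both were above flox.

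Among the other members the size of the difference varied widely. Tex19.1, which restrains transposons and is active in stem cells, was at 56.3, 172 and 153 CPM. Rpl10l, a testis copy of a ribosomal protein gene, was at 65.6, 132 and 150 CPM, just past the 2-fold limit. Taf7l, a germ cell relative of a TFIID subunit, had 3 reads in flox and 41 and 20 in the clones, a ratio of 11.0 (counting interval 3.5 to 55.3) in clone 27 and 5.3 (1.57 to 27.8) in clone 48. Smc1b, the meiotic cohesin subunit, also had 3 reads in flox, and its ratios were 8.56 (2.68 to 43.7) and 7.42 (2.29 to 38.1). Brdt, the testis bromodomain protein, was at 0.370, 3.73 and 2.73 CPM. Tex11 was at 1.00, 4.24 and 3.99 CPM, and Meioc, which extends meiotic prophase, at 1.27, 3.86 and 4.41 CPM. Stag3, another meiotic cohesin subunit, was at 32.4, 43.2 and 50.5 CPM and did not reach 2-fold. Dazl, an early germ cell RNA-binding protein, was at 3.01, 2.72 and 1.89 CPM. With TMM scaling in place of CPM, 12 of the 28 were higher, Rpl10l and Taf7l missing the limit, and with 2 CPM added 7 of the 14 passed it.

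The starts of several of these germline genes hold the palindrome CACGTG, the E-box letters bound by MAX and its partners. Of the higher genes with windows, 7 are shown, 5 with these letters and 2 without, to set their positions side by side; the windows are from RefSeq on build GRCm38.p6, which is not the build named for the deposited tables. Each is the 150 bases directly before the gene's start, 5′ to 3′ on the gene's own strand, with CACGTG in capitals. The first 5 hold it, and those of Syce1 and Smc1b do not.
Ddx4, chr13:112652311-112652460, minus strand: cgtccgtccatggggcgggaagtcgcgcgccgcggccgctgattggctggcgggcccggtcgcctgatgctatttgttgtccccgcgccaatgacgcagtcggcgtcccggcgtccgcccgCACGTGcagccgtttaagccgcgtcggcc
Sycp1, chr3:102936101-102936250, minus strand: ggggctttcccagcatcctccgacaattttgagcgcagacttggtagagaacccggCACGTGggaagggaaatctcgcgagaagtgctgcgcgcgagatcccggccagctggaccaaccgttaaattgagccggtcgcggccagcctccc
Sycp3, chr10:88459437-88459586, plus strand: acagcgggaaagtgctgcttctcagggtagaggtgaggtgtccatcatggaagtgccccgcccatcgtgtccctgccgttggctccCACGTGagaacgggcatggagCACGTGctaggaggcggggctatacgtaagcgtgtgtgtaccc
Brdt, chr5:107331044-107331193, plus strand: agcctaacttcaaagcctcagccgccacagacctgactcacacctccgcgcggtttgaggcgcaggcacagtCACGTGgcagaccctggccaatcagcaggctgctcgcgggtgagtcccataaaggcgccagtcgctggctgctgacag
Taf7l, chrX:134476491-134476640, minus strand: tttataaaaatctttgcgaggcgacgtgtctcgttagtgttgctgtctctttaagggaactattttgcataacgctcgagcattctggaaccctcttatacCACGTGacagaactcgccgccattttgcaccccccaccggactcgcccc
Syce1, chr7:140787855-140788004, minus strand: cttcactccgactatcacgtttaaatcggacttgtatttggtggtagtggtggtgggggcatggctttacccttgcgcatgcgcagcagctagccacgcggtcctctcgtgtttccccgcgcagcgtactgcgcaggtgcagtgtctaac
Smc1b, chr15:85131958-85132107, minus strand: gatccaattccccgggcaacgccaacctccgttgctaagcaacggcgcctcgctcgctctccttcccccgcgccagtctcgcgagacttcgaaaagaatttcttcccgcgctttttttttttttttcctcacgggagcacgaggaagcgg

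In Ddx4 the E-box letters begin 29 bases before the start, in Taf7l 49, in Brdt 78 and in Sycp1 94 bases before it. Sycp3 holds them at 64 and at 43 bases before its start. CACGTG was searched in windows of 300 bases, 250 before and 50 after each start; it reads the same on both strands. Of the 14 germline genes that were higher, 12 had a window and 7 of these (58.3%) held it: the 5 above, Mael and Mov10l1. Of the other 14 germline genes, 5 (35.7%) held it, against 1208 of 10018 measured genes with a window (12.1%). The higher genes as a whole were at 9.54% (48 of 503) and the lower genes at 11.4% (25 of 219), so the letters were no more common among them. A gene with several windows was counted once if any held the letters. The letters GGCGGGAA, on either strand, were in 2.98% of the higher, 3.65% of the lower and 5.01% of all measured genes with a window, in 1 of 12 higher germline genes (8.33%) and in 4 of 14 other germline genes (28.6%). CG pairs were fewer in both D0 groups, with a median of 13.0 per window in higher and in lower genes against 21.0 in all; the medians were 20.5 in the higher and 19.5 in the other germline genes. These matches are descriptions, not bound sites.

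Families of near-identical genes known to lie on the X chromosome were higher as blocks. Of the 12 listed Xlr family genes, which are lymphocyte and germ cell genes, 8 were higher and 4 were under 1 CPM throughout, where 5.18% of all measured genes were higher. Xlr3a was at 6.24 CPM in flox, 62.9 in clone 27 and 49.2 in clone 48, and Xlr4b at 0.635, 16 and 7.94 CPM. The Rhox cluster holds reproductive homeobox genes. Of 30 genes with a Rhox symbol, 17 were measured and 16 of these were higher, 0 lower; of the 12 on the list described here, 6 were higher and 6 under 1 CPM. Rhox6 was at 1.75, 13.2 and 9.08 CPM, Rhox9 at 1.59, 11.1 and 9.42 CPM, and Rhox4b went from 3 reads in flox to ratios of 23.5 (7.79 to 116) and 19.9 (6.54 to 98.5). Flox was the lowest library in each. Reads from such copies may be shared or split by the counting, which makes the values of single members uncertain: Ott, Gm15080 and Gm15085 had the same counts in all libraries. Of the higher listed Xlr genes 5, and of the higher listed Rhox genes 4, were under 1 CPM in flox and so were measured only through the clones.

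Higher genes often stood next to each other. In the order of the RefSeq gene table, 196 of 650 higher genes with a place (30.2%) had a higher gene as direct neighbour among the measured genes, against 1208 of 12601 measured genes (9.59%). Of the lower genes, 53 of 315 (16.8%) adjoined a lower gene, against 4.90% of measured genes. There were 6 runs of 5 or more higher genes: 14 genes around Xlr3, Xlr4 and Xlr5 (from Zfp185 to Xlr3c), 12 and 5 genes of the Rhox region, 11 genes around Luzp4 and Ott, 5 genes with Rtl8a, Rtl8b and Rtl8c, and 5 genes from Ttll6 to Hoxb9. Without these 52 genes, 144 of 598 higher genes (24.1%) still had a higher neighbour, against 9.21%. Overlapping annotations and shared reads raise such shares, and their part was not tested.

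Of 34 measured imprinted genes (38 in the tables), 7 were higher and 1 was lower, where 5.18% of all measured genes were higher and 2.50% lower. With TMM scaling Plagl1 (68.5, 34.0 and 27.8 CPM) was lower as well. Peg10 and Sgce, which start from a shared imprinted promoter and face away from each other, were both among them, Sgce being at 0.423 CPM in flox, 9.16 in clone 27 and 7.27 in clone 48. Slc38a4, an amino acid transporter, was at 29.2, 248 and 225 CPM, and Sfmbt2, a Polycomb-type protein of the placenta, at 19.5, 68.2 and 67.6 CPM. Nnat was at 3.28, 11.3 and 11.1 CPM, Ndn at 3.91, 9.97 and 8.83 CPM and Peg12 at 0.846, 3.27 and 3.53 CPM. These genes are known as paternally expressed. Phlda2, a maternally expressed inhibitor of placental growth, was lower, at 13.9, 3.78 and 5.59 CPM. Jade1, Gab1, Gnas and Igf2r, the most abundant other members in flox apart from Rian, were within 2-fold in both clones, for example Igf2r at 110, 162 and 155 CPM. The median log2 ratio of the 34 measured members was 0.18, beside 0.07 for all measured genes; it was 0.40 in clone 27 alone and 0.15 in clone 48 alone, and the Dlk1-Dio3 RNAs that clone 48 lacks are in this list.

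Of 12 measured enzymes and readers of DNA methylation, 2 were higher and 0 lower, beside 5.18% and 2.50% of all measured genes. Dnmt3a, a de novo DNA methyltransferase, was at 57.6 CPM in flox, 209 in clone 27 and 172 in clone 48, and the 5-methylcytosine oxidase Tet3 at 5.45, 14.9 and 12.1 CPM. Dnmt3b was at 127, 142 and 172 CPM. Uhrf1, Dnmt1, Zfp57 and Tet1 were within 1.5-fold of flox, with Dnmt1 at 513, 526 and 544 CPM.

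Pluripotency genes were mostly somewhat below flox, and few passed 2-fold; of all measured genes 5.18% were higher and 2.50% lower. Of 14 naive pluripotency genes, 2 were lower: Prdm14, which represses fibroblast growth factor signalling and de novo methyltransferases, was at 40.1 CPM in flox, 10.0 in clone 27 and 11.2 in clone 48, and Nr0b1 (DAX1) at 140, 58 and 55.7 CPM. The list's median log2 ratio was -0.35, and 11 of its 14 members were below flox in both clones and 2 above, where 35.6% of all measured genes were below and 52.9% above in both. Tfcp2l1 was at 900, 1130 and 1130 CPM, while Zfp42, Esrrb and Klf4 were within 1.5-fold of flox. Of 12 core pluripotency genes, 1 was higher, Lin28b, a translation regulator that blocks let-7 processing, at 21.3, 45.8 and 49.2 CPM. With TMM scaling Lin28b missed the limit. Sox2 was at 624, 304 and 338 CPM, which passed 2-fold in clone 27 only, and Dppa5a at 1570, 829 and 880 CPM passed it in neither. Of the genes of the formative and primed state, into which naive cells move, 2 of 10 measured were higher. Otx2, a transcription factor of that transition, was at 0.899, 11.7 and 9.84 CPM, and Dnmt3a had the values given with the methyltransferases. Further markers of that state were not higher: Fgf5 had at most 0.264 CPM, and Pou3f1 was at 3.44, 2.63 and 3.40 CPM.

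Several genes that answer to signalling pathways were lower. In each list of this and the following groups the counts stand against the 5.18% of all measured genes that were higher and the 2.50% that were lower. In most of these lists 1 gene is a larger share than either. In any list described here, a higher gene under 1 CPM in flox was measured only through the clones, which raises the share of higher genes. In the Nodal pathway, which supports the epiblast, the ligand Nodal was at 80.1 CPM in flox, 115 in clone 27 and 108 in clone 48. Its feedback inhibitors were the 2 lower genes of 11 measured: Lefty1, at 208, 47.1 and 43.8 CPM, and Lefty2. The receptors and SMADs were near flox, as in Smad2 with 62.5, 72.9 and 70.2 CPM. Among 15 measured targets of MEK and ERK signalling, which the medium inhibits, 3 were lower and 1 higher. The feedback inhibitor Spry2 was at 77.3, 23.9 and 15.4 CPM, Spry4 at 17.0, 2.76 and 3.87 CPM and Myc at 13.7, 3.65 and 4.33 CPM, while Phlda1 was at 1.75, 7.09 and 4.96 CPM. With TMM scaling Dusp4 and Etv4 were lower too. Etv5, the most abundant of the list, was at 400, 298 and 339 CPM. Of the Wnt targets, 1 of 10 measured was lower, the Wnt deacylase Notum, at 242, 34.6 and 41.9 CPM, whereas Axin2 was at 110, 105 and 85.5 CPM.

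Of the 12 measured Notch pathway genes 3 differed. In the Notch pathway Notch4 (42.0, 15.4 and 17.1 CPM) and the ligand Jag1 (80.2, 33.5 and 36.2 CPM) were lower and Lfng, a sugar transferase that tunes Notch, was higher (0.846, 4.58 and 4.04 CPM). The target Hes1 was at 52.4, 41.1 and 45.5 CPM. Of the response to leukemia inhibitory factor, the kinase gene Pim1 alone of 10 measured was lower, at 77.3, 30.3 and 35.1 CPM, and Socs3 was at 112, 127 and 154 CPM. Of the 9 measured BMP and ID genes, Id4 was lower, at 19.5, 5.81 and 7.36 CPM.

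**Figure D4:**
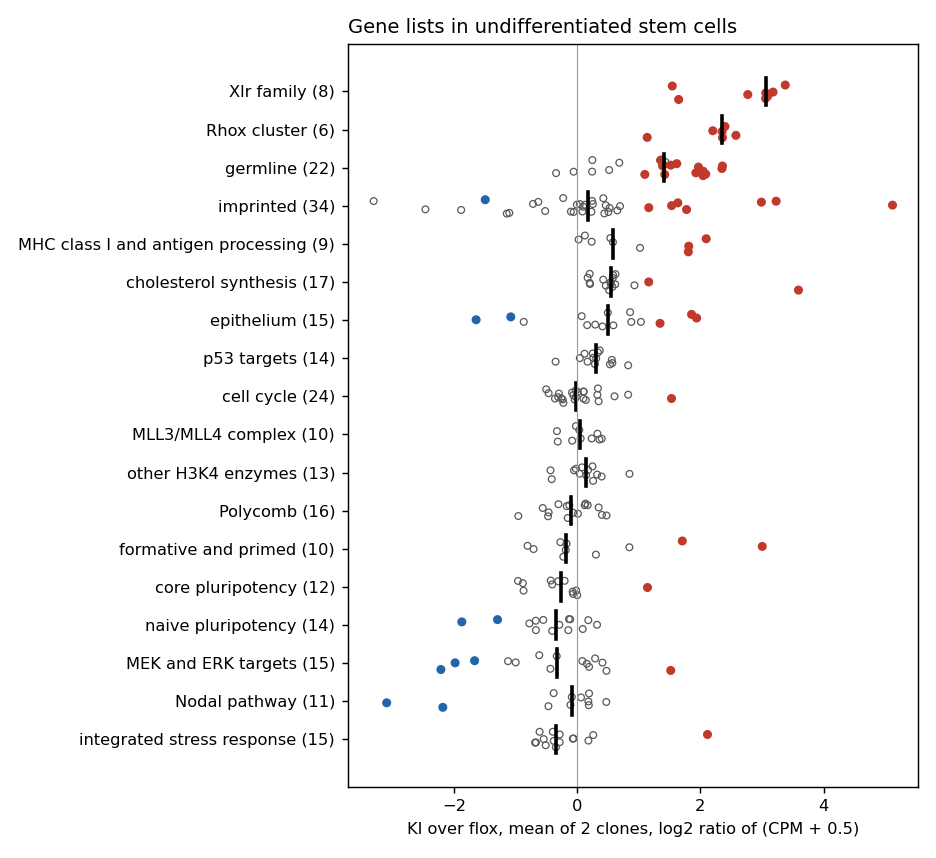
Mean log2 ratio of (CPM + 0.5) of the 2 KI clones to flox for the measured members of 18 gene lists (number of members in brackets), with black bars at the list medians. Filled points were higher (red) or lower (blue) in both clones; the Xlr, Rhox and germline lists have filled red points and no blue ones, and open points far below 0 in the imprinted list are Meg3, Rian and Mirg, which were low in clone 48 only.

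Lists outside development differed in how many members moved. All 17 genes of cholesterol synthesis and uptake were above flox in both clones, by a median log2 ratio of 0.55, where 52.9% of all measured genes were above flox in both clones; with TMM scaling it was again all 17, against 42.7%. Both clones share the flox library, so its error moves both signs together. The cyclase Lss, at 77.7, 168 and 182 CPM, was higher by the 2-fold rule. Of 9 measured genes of MHC class I and antigen processing, 3 were higher: the peptide transporter Tap1 at 1.22, 7.17 and 6.51 CPM, the peptide-trimming Erap1 at 1.59, 7.13 and 6.47 CPM and the immunoproteasome subunit Psmb9 at 0.264, 1.95 and 2.44 CPM. B2m, the light chain, was at 15.2, 17.4 and 15.9 CPM. Interferon-stimulated genes were split, with 3 of 17 measured higher (Bst2, Oasl1 and Zbp1) and 2 lower (Oas1a and Xaf1); Zbp1 missed the limit with TMM scaling. Bst2, tetherin, was at 15.3, 47.9 and 47.6 CPM, and Oas1a at 25.0, 3.69 and 6.98 CPM.

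Of 15 genes of epithelial character and its loss, Cldn7 (1.96, 8.36 and 8.45 CPM), Krt19 and Esrp1 were higher. Vim (566, 265 and 272 CPM) and Cdh2, N-cadherin, at 13.2, 3.95 and 3.82 CPM, were lower. Cdh1, E-cadherin, was at 522, 692 and 697 CPM. Of the integrated stress response list, 12 of 15 were below flox in both clones, beside 35.6% of all measured genes, and Ddit4, an inhibitor of mTORC1, was higher, at 34.6, 153 and 150 CPM. Atf4 was at 309, 202 and 222 CPM. Of 17 measured hypoxia and glycolysis genes Ldha was higher (502, 1030 and 1210 CPM), but not with TMM scaling, and Bnip3 lower (26.8, 8.19 and 12.4 CPM). None of 14 measured p53 targets and none of 16 Polycomb genes was higher or lower, although with TMM scaling Kdm2b was lower. Of the p53 targets 11 were above flox in both clones, where 52.9% of all measured genes were. With TMM scaling it was 10, against 42.7%. Cdkn1a, which encodes p21, was at 282, 514 and 487 CPM. Of 24 cell cycle genes only the cyclin Ccnd2 was higher, at 1.69, 5.60 and 5.97 CPM.

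Some markers of differentiated cells were higher and others lower within the same list. The extraembryonic endoderm gene Dab2 was at 0.582, 3.73 and 2.27 CPM and Sox7 at 1.85, 5.47 and 4.25 CPM, both higher, while Lama1, a laminin chain, was at 114, 17.1 and 33.8 CPM and Hnf4a at 1.64, 0.0 and 0.210 CPM, both lower. With TMM scaling Sox7 missed the limit, and the trophoblast gene Cdx2 passed it on the lower side. Gata6 and Sox17 stayed under 1 CPM in the 3 libraries. Of the 7 measured genes of the neural list, Neurod1 (0.582, 3.82 and 3.49 CPM), Sox1 (2.49, 6.24 and 7.73 CPM) and Pax6 were higher, and Nes was at 24.5, 15.1 and 19.8 CPM. Pax6 had 3 reads in flox, and its ratio was 8.83 (2.77 to 45.0) in clone 27 and 9.27 (2.92 to 47.1) in clone 48. Neurod1 and Pax6 were under 1 CPM in flox and so were measured only through the clones. Of 39 Hox genes 6 were measured and 2 of these were higher, Hoxb9 at 0.635, 2.50 and 2.40 CPM and Hoxb13 with 1 read in flox and 15 and 24 in the clones, and 33 were under 1 CPM throughout. Both higher Hox genes were under 1 CPM in flox and so were measured only through the clones. Hoxb13 was not counted with TMM scaling. The fibroblast marker Thy1 was at 0.370, 2.89 and 5.17 CPM. Fewer cells of a type and less RNA per cell cannot be told apart in these bulk samples. The 2-cell-like list differed by clone: 4 of its 5 measured genes were at least 2-fold higher in clone 27 and 0 in clone 48. Of all 12934 measured genes, 861 were so in clone 27 and 774 in clone 48. These 4 list members, Zscan4a, Zscan4b, Zscan4c and Zscan4f, reached 1 CPM in clone 27 only. They were thus measured only through that clone, so their count is in large part set by the filter. A further 9 members were under 1 CPM throughout. Zscan4c, one of them, was at 0.0529 CPM in flox, 1.61 in clone 27 and 0.0420 in clone 48.

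The same genes were then followed in other cultures of the flox line and of clones 27 and 48, in libraries that the D0 comparison did not use. EBs, which are aggregates differentiating without leukemia inhibitory factor, again had 1 flox library per day and no test. Of the 560 D0-higher genes measured in EBs at day 4, 83 (14.8%) were higher there in both clones, against 1.45% of all measured genes, and 36 (6.43%) were lower, against 4.43%. Of 250 D0-lower genes, 38 (15.2%) were lower again and 2 (0.800%), Fgf17 and Tcl1, were higher. At day 10 the shares were smaller: 52 of 516 D0-higher genes (10.1%) were higher, against 3.50% of all genes, and 24 of 237 D0-lower genes (10.1%) were lower, against 3.91%. The opposite direction was also above the share of all genes there: 39 (7.56%) of the D0-higher genes were lower and 18 (7.59%) of the D0-lower genes were higher.

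In the cultures with 2 flox and 2 KI libraries, edgeR's quasi-likelihood test with Benjamini-Hochberg adjustment over all genes was used, at an adjusted p of 0.05. The labels do not say that the 2 flox libraries are separate cultures, so the p-values measure the spread between these libraries, which may be technical on the flox side and spans the 2 clones on the KI side. In TE cultures, whose cells carry a Cdx2 construct, 261 of 634 D0-higher genes (41.2%) were called higher, against 26.7% of all genes tested, and 148 (23.3%) lower, against 24.2%. Of 291 D0-lower genes, 149 (51.2%) were called lower and 40 (13.7%) higher. In ExEn cultures 301 of 634 D0-higher genes (47.5%) were called higher, against 18.1%, and 68 (10.7%) lower, against 17.4%. Of the D0-lower genes 90 of 291 (30.9%) were called lower there and 51 (17.5%) higher.

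The neural cultures differed from this. At neural day 8, the progenitor stage, 78 of 569 D0-higher genes (13.7%) were called higher, against 6.30% of all genes, but 135 (23.7%) were called lower, against 13.2%. Of 277 D0-lower genes 81 (29.2%) were lower and 20 (7.22%) higher. At day 16, among neurons, 160 of 569 D0-higher genes (28.1%) were called higher, near the 27.1% of all genes, and 177 (31.1%) lower, against 19.7%. Of the D0-lower genes 74 of 277 (26.7%) were lower and 84 (30.3%) higher. Whether the shares differ between cultures was not tested.

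**Figure D5:**
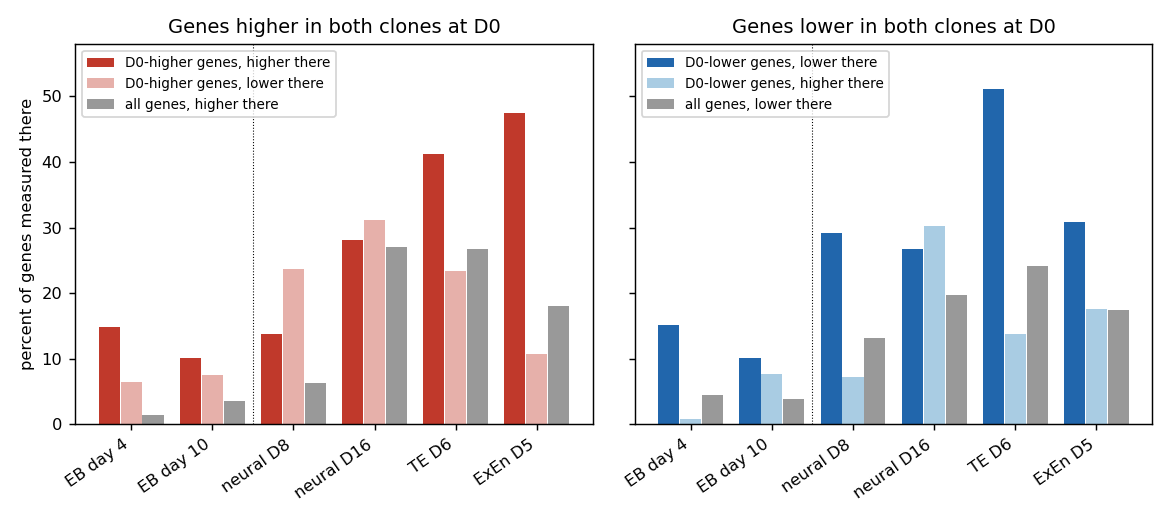
Percent of D0-higher genes (left) and D0-lower genes (right) that were called in the same direction (dark bars) or the opposite one (light bars) in other cultures, beside the percent of all genes called in the D0 direction there (grey bars). EB days left of the dotted line use 2-fold in both clones with no test, and the others edgeR at an adjusted p of 0.05; in ExEn the D0-higher genes reach 47.5% against 18.1%.

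Of the 561 D0-higher genes tested in all 4 of these cultures, 19 (3.39%) were called higher in every one, against 38 of 14920 genes (0.255%). Of 265 D0-lower genes, 6 (2.26%) were called lower in every one, against 0.798%. The 6 were Arhgap45, Cdh4, Itga9, Qprt, Rcn3 and Trim63. The 10 genes with the largest D0 ratio were all on the higher side: Luzp4, Ott, Xlr4b, Gm15107, Gm15097, Gm10439, Gm15127, Gm15085, Gm15080 and Gm15093. All of these except Xlr4b stand in the run of neighbours around Luzp4 and Ott. Reads of such copies may be shared, and Ott, Gm15080 and Gm15085 had the same counts. The 19 genes are therefore not separate measurements, and the share without these copies was not computed. Luzp4 had log2 fold changes of 4.25 ± 0.49 (SE) at neural day 8, 5.4 ± 0.73 at day 16, 4.94 ± 0.51 in TE and 3.87 ± 0.44 in ExEn (edgeR adjusted p 5.75e-05, 9.87e-05, 2.06e-06 and 1.03e-05). Xlr4b had 4.86 ± 0.74, 5.65 ± 0.84, 2.50 ± 0.17 and 1.64 ± 0.18. All 6 Xlr genes tested in the neural cultures and all 10 tested in TE and ExEn were called higher, beside 6.30% of all genes at neural day 8, 27.1% at day 16, 26.7% in TE and 18.1% in ExEn.

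Germline genes were mostly called higher in TE and ExEn. Of 28 listed germline genes tested there, 19 were called higher in TE and 23 in ExEn, and 0 were called lower; at neural days 8 and 16, 4 and 6 of 20 were called higher, and Dazl was called lower at day 8. All genes were called higher in 26.7% of cases in TE, 18.1% in ExEn, 6.30% at neural day 8 and 27.1% at day 16, so that the germline count at day 16 was near the share of all genes. Whether these numbers differ between cultures was not tested. In EBs at day 4, 14 of 23 measured were higher in both clones, beside 1.45% of all genes. At day 10 Tex19.1 and Meioc of 9 were higher, beside 3.50% of all genes, and Mov10l1 was lower, beside 3.91%. Tex19.1 was called in all 4 cultures, with log2 fold changes of 2.08 ± 0.37, 4.20 ± 0.84, 1.89 ± 0.11 and 2.02 ± 0.11 (edgeR adjusted p 0.00158, 0.00155, 1.57e-08 and 1.86e-08). Sohlh2 had 4.72 ± 0.13 in TE and 3.27 ± 0.11 in ExEn (2.31e-11 and 8.58e-11, edgeR adjusted p), but -0.33 ± 0.40 at neural day 8 (0.665). Piwil2 had 2.18 ± 0.17 in TE and 3.17 ± 0.20 in ExEn, and 0.16 ± 0.31 at neural day 8. Of 7 listed Rhox genes tested in TE and ExEn, 6 were called higher in each. In EBs 2 of them were measured, with 2 higher at day 4 and 0 at day 10. At neural days 8 and 16 only 1 was tested, and it was not called.

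Other leading genes did not keep one direction or size. Peg10 had a log2 fold change of 1.36 ± 0.05 in TE and 1.22 ± 0.05 in ExEn (edgeR adjusted p 1.37e-09 and 6.21e-09), but -0.67 ± 0.10 at neural day 8 (0.00029); flox itself held 955 CPM of it in EBs at day 4, against 11.8 at D0. Slc38a4 had 1.27 ± 0.05 in TE and -2.98 ± 0.13 at neural day 16. Dnmt3a was higher in both clones in EBs at day 4, with log2 ratios of 1.41 and 1.39, and had 0.11 ± 0.07 in TE (adjusted p 0.21, edgeR). Cobl had -2.41 ± 0.14 at neural day 8, -2.86 ± 0.20 in TE and -1.0 ± 0.22 in ExEn, all called, and 0.23 ± 0.11 at neural day 16 (adjusted p 0.099, edgeR). Lefty1 was called lower at neural day 16, in TE and in ExEn, with log2 fold changes of -2.26 ± 0.52, -2.13 ± 0.22 and -2.58 ± 0.31. Otx2 was called lower in ExEn, with -5.49 ± 0.42, opposite to its D0 direction. Prdm14 had -4.13 ± 0.61 in TE, and Sox2 -3.0 ± 0.14, both called.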

How the data were processed

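RNA of 3 D0 libraries, and of libraries of the same lines in other cultures, was taken from the deposited per-transcript tables. Each table gives a count of reads per RefSeq transcript as deposited, and an RPKM value that, checked on the deposited files, equals that count divided by length and by 1 constant per library. The submitters' processing notes name bcl2fastq, Bowtie2, STAR, SICER 1.1 and build mm9 without roles; the step of each, the counting rule and its use of strand are not given in the sources used here, so antisense and overlapping genes cannot be told apart. Transcripts were joined to symbols through a RefSeq table of GRCm38.p6 (28436 of 29082; the other 646 held 1.25 to 1.3% of reads), and 1 transcript per gene was kept, that with most reads over all 37 RNA libraries (23109 entries, 73.8 to 74.4% of the reads). Genes of several transcripts thereby lose reads. Counts were scaled to CPM of the gene-level total, and log2 ratios used 0.5 CPM added and genes with at least 1 CPM in at least 1 library.

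Intervals of ratios are exact binomial at 95% and, like the limit of 3 reads for a count of 0, cover counting error only. EB libraries were treated alike. Neural, TE and ExEn libraries were tested with edgeR 4.0.16 in R 4.3.3 (TMM, filterByExpr, robust quasi-likelihood, 8 libraries per fit), with DESeq2 1.42.0 as an alternative. The scripts were tested on simulated data. TE and ExEn labels give total RNA, unlike D0, and tests were made only within a culture; levels set side by side across cultures are CPM values, untested.

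The members and the 34 gene lists were chosen with earlier results of these data known. Named were the 12 higher and 12 lower genes with the largest smaller ratio of the 2 clones and at least 5 CPM in 1 library, the changed members of each list with up to 4 abundant others, Kmt2c and Kmt2d, and 10 genes called alike in the 4 tested cultures; clone-specific genes and further list members were chosen after their values were seen. Some genes that this rule names are not reported here. Values per chromosome were planned only for a gene table of build mm9, which was not at hand, and were not computed. The GRCm38.p6 gene table was used for symbols and for the order of neighbouring genes. Promoter windows are from RefSeq GRCm38.p6.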

Additional observations from a re-analysis of the deposited data

Results flagged for a closer look

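For 7 of the genes with the largest D0 difference, another culture showed the opposite direction, with every KI library beyond every flox library on the other side. Among genes higher in both clones at D0, edgeR log2 fold changes were -0.67 for Peg10 at neural day 8, -0.46 for Pdpn and -0.46 for Plekhg1 at neural day 16, -0.32 for Pdpn in ExEn, and -1.43 for Arrb1 in TE and -0.57 in ExEn. Among genes lower at D0, values at neural day 16 were 0.92 for Mcf2, 0.72 for St8sia1 and 0.36 for Pdzd4. Whether these differences between cultures exceed error was not tested, since D0 has 1 flox library.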

How the results depend on the processing

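Counts at D0 followed the size rule. With 2 CPM added in place of 0.5, 338 genes were higher and 199 lower; with a 1.5-fold minimum 1460 and 717, and with a 4-fold minimum 130 and 59. Requiring 5 CPM left 399 higher and 225 lower genes. Genes differing between the clones numbered 350 at 1.5-fold and 19 at 5 CPM. These shifts follow from the construction of each rule. With TMM scaling 599 genes were higher and 374 lower, all 599 and 323 of the 374 being among those reported, and the median over all genes moved from 0.07 to -0.01. The remaining D0 alternatives (0.1 CPM added, no minimum, whole-table CPM, size factors, sums over transcripts, each clone alone) stayed within 1.5 times the reported counts.

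In the tested cultures, DESeq2, no filter, a fit of 4 libraries and leaving out each library gave 56 counts, each within 1.5 times: of D0-higher genes, 52 to 101 called higher at neural day 8, 113 to 163 at day 16, 218 to 261 in TE and 234 to 308 in ExEn; of D0-lower genes, 59 to 98, 53 to 74, 126 to 155 and 73 to 94 called lower in that order. Of 111 genes named by rank or as changed list members, all kept their direction and 26 missed the 2-fold limit under at least 1 alternative, in 47 values, with 841 unaffected; no gene of the 12 largest in each direction or of the 10 called in every culture did. Of list medians under alternatives, 93 stayed within the spread and 43 moved by more; the largest shift was 1.37, and 9 lists changed sign, 3 of them from a median of at least 0.1 in size: the 2-cell-like list (0.92 to -0.03) and mesoderm (0.25 to -0.13) without clone 27, and the sex-linked genes (-0.93 to 0.05) without clone 48.

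No paired analysis was possible because flox and KI libraries share no replicate numbers. Values per chromosome were not run because the plan limited them to a gene table of build mm9. With 1 flox library, no depth removes the error of that library; genes of 3 or fewer reads in flox carry wide counting intervals.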
